A study of Mus musculus with 12 samples.

Results

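Pcdhb1 to Pcdhb8 are the 8 genes at the start of the mouse protocadherin beta cluster, and their RNA was measured in brains of embryos with and without Nsd2. The genes were chosen by symbol alone, as the rows named Pcdhb1 to Pcdhb8 in the deposited count tables, which makes 8 of 46078 genes. The 12 libraries came from brain RNA at E15.5, with 3 WT and 3 Nsd2 KO embryos of each sex. The labels do not say which parts of the brain were taken. The KO deletes all of the coding sequence of Nsd2 throughout the embryo, and no other allele or treatment is given in the labels. The labels do not say from which litters the embryos came, and the p-values measure the spread between these embryos. Counts were compared with edgeR's quasi-likelihood test, with Benjamini-Hochberg adjustment over all genes tested, and a gene was called when its adjusted p was under 0.05. Levels are in CPM, which are counts relative to library size with TMM normalization, and each log2 fold change is KO over WT with its standard error (SE).

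Clustered protocadherins are cadherin-related adhesion molecules of neurons. Their genes lie in 3 neighbouring clusters named alpha, beta and gamma, and each neuron switches on its own small selection of the promoters. The proteins of the selected genes bind copies of themselves on other membranes, which lets a neuron tell its own branches from those of its neighbours. Alpha and gamma variable exons are spliced to constant exons shared within their cluster, whereas each beta gene is a single exon that encodes a whole adhesion protein with a short cytoplasmic tail of its own. Promoter choice is known to involve DNA methylation, the looping factors CTCF and cohesin, and the silencing factors SETDB1 and SMCHD1. NSD2 is a methyltransferase that places the dimethyl mark on lysine 36 of histone H3.

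All 8 genes lie on the plus strand of chromosome 18 of GRCm38, within 93667 bp, and the longest transcript of each has 1 exon. Pcdhb1 lies apart at chr18:37264938-37267525, separated by 27286 bp from Pcdhb2 at chr18:37294812-37297624. Pcdhb3 (chr18:37300799-37304585), Pcdhb4 (chr18:37307455-37311172), Pcdhb5 (chr18:37320381-37323915), Pcdhb6 (chr18:37333921-37337674), Pcdhb7 (chr18:37341702-37345202) and Pcdhb8 (chr18:37355121-37358604) follow with gaps of 2869 to 10005 bp. A gap of 42250 bp then separates Pcdhb8 from Pcdhb9. The coding sequences are 2316 to 2487 bp long. Pcdhb1 shared 59.6% to 61.7% of its coding bases with each of the other 7 genes, and pairs among Pcdhb2 to Pcdhb8 shared 73.8% to 89.7%. Pcdhb6 and Pcdhb8 were the most alike pair, and Pcdhb5 and Pcdhb7 shared 87.7%.

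The libraries held 40398665 to 59304196 counts each. WT and KO totals overlapped in each sex (two-sided exact permutation test, p = 0.4 in males and p = 0.6 in females, smallest possible p 0.1). Nsd2, listed as Whsc1, averaged 369 CPM in WT males and 387 CPM in WT females, against 1.18 CPM in KO males and 1.87 CPM in KO females, so the genotype labels hold. The sex labels were not checked. The 8 neuronal markers examined summed to 5552 to 6164 CPM in the 12 libraries, and none was at 0. Hox genes, which mark hindbrain and spinal cord, varied between libraries within groups. Hoxa5 was at 13.2 to 53.9 CPM in WT males 2 and 3, KO male 2, WT female 3 and KO females 2 and 3, and under 1 CPM in the other 6 libraries, with 0 counts in KO male 3. In bulk tissue, a change in the number of cells that express a gene cannot be told apart from a change in RNA per cell.

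In males, 3 of the 7 genes that could be tested rose in KO brains, Pcdhb2, Pcdhb3 and Pcdhb6, and none fell. Across all genes tested in males 0.461% were called, and 0.123% were called as higher in KO. Pcdhb2 was at 3.87, 3.53 and 3.46 CPM in the WT males and at 7.95, 8.16 and 9.13 CPM in the KO males. The KO libraries were all above the WT libraries, with 2.32 times the WT level (log2 fold change 1.21, SE 0.122, edgeR adjusted p = 0.00657). Pcdhb3 was at 5.59, 5.72 and 5.29 CPM in WT and at 9.48, 10.6 and 9.25 CPM in KO males. Its 6 values also formed 2 groups that did not overlap, with a log2 fold change of 0.82 (SE 0.108, edgeR adjusted p = 0.0208). Pcdhb6 was at 3.81, 4.27 and 3.803 CPM in WT and at 6.80, 7.41 and 7.50 CPM in KO males. Each KO male exceeded each WT male here too, by 0.87 on the log2 scale (SE 0.121, edgeR adjusted p = 0.0273). These calls were sensitive to leaving out 1 library, and why was not tested. Those of Pcdhb3 and Pcdhb6 were lost when any 1 of the 6 libraries was left out (adjusted p = 0.0508 to 0.12 and 0.0553 to 0.187), while their log2 fold changes ran from 0.76 to 0.86 and from 0.84 to 0.92, and that of Pcdhb2 was lost only without KO male 3 (log2 fold change 1.15, adjusted p = 0.06).

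The other 4 tested genes did not pass the test in males, although 3 of them had all KO libraries above all WT libraries. Pcdhb5 was at 6.29, 5.40 and 5.20 CPM in WT and at 8.66, 9.16 and 8.43 CPM in KO males (log2 fold change 0.63, SE 0.117, edgeR adjusted p = 0.0731). Pcdhb7 was the most abundant of the 8 genes, at 11.03, 13.7 and 12.04 CPM in WT and at 17.2, 22.1 and 16.002 CPM in KO males (log2 fold change 0.59, SE 0.14, edgeR adjusted p = 0.165). The high value of KO male 2 widened the spread of the KO group. Pcdhb4 was at 6.89, 5.69 and 5.15 CPM in WT and at 8.03, 8.63 and 9.06 CPM in KO males (log2 fold change 0.53, SE 0.135, edgeR adjusted p = 0.195). Pcdhb8 was at 5.34, 6.21 and 5.22 CPM in WT and at 7.46, 5.42 and 7.06 CPM in KO males (log2 fold change 0.25, SE 0.154, edgeR adjusted p = 0.554). KO male 2 lay among the WT males for Pcdhb8. In all, 6 of the 7 genes had every KO male above every WT male, a pattern that 8.87% of all tested genes showed.

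**Figure D1:**
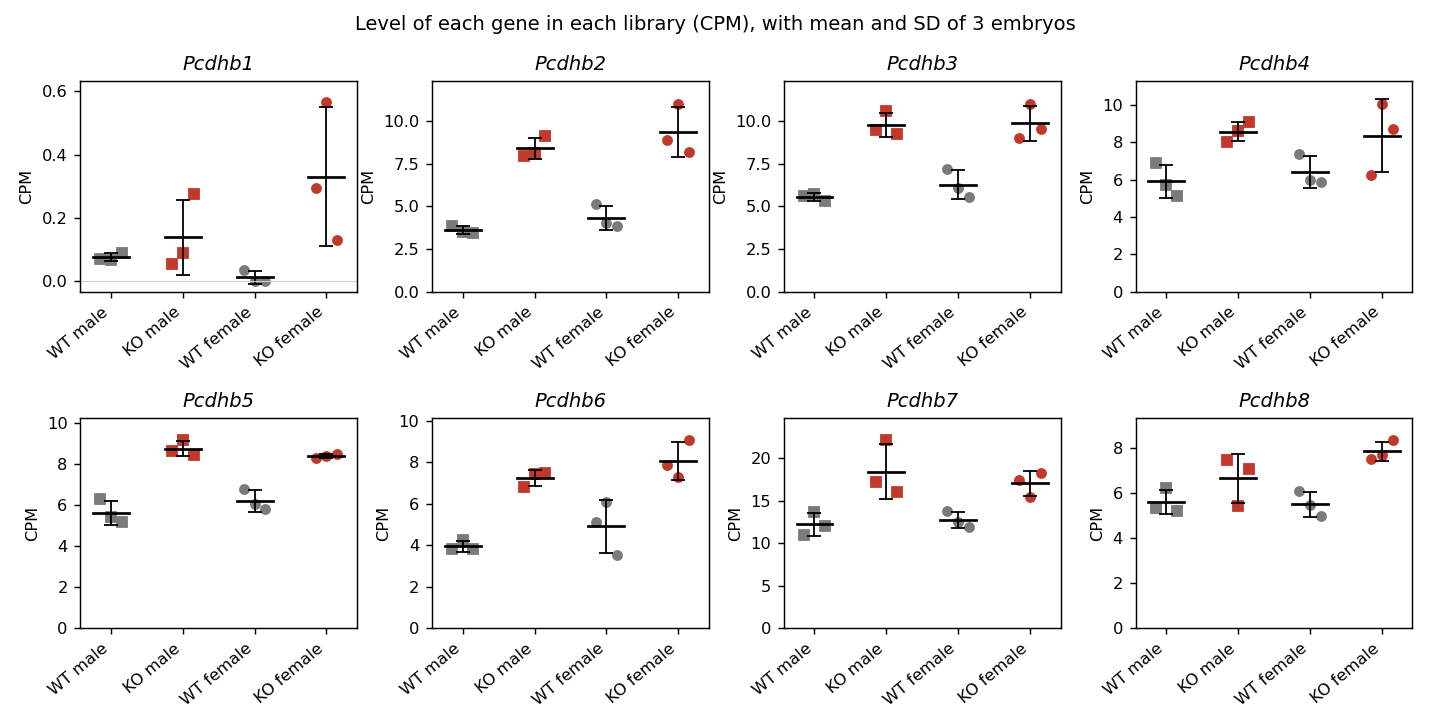
Level of each of the 8 genes (vertical axis, CPM, starting at 0 except for a margin under Pcdhb1) in each library, as squares for males and circles for females, grey for WT and red for KO. Horizontal lines are means and bars are SDs of 3 embryos. Pcdhb2 to Pcdhb7 have all KO males above all WT males, and Pcdhb1 stays under 0.6 CPM throughout.

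In females, none of the 7 tested genes was called by edgeR, where 0.016% of all tested genes were called and 0.0107% were called as higher in KO. With an unadjusted p under 0.05 there were 6 of the 7, all higher in KO, against 3.59% of all genes tested, and DESeq2 called 2 of them, Pcdhb2 and Pcdhb3, against 0.317% of all genes it tested as higher in KO. Pcdhb2 was at 5.12, 4.05 and 3.84 CPM in WT and at 8.89, 11.03 and 8.20 CPM in KO females. These groups did not overlap, and the log2 fold change was 1.11 (SE 0.178, edgeR adjusted p = 0.178). Pcdhb3 was at 7.19, 6.05 and 5.54 CPM in WT and at 9.004, 11.01 and 9.52 CPM in KO females (log2 fold change 0.65, SE 0.15, edgeR adjusted p = 0.366). Pcdhb6 was at 5.14, 6.07 and 3.52 CPM in WT and at 7.85, 7.29 and 9.06 CPM in KO females (log2 fold change 0.72, SE 0.218, edgeR adjusted p = 0.533). Its WT values spread more widely in females than in males, with an SD of 1.29 CPM against 0.265 CPM.

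The smaller differences of the remaining genes were also positive in females. Pcdhb8 was at 6.08, 5.46 and 4.97 CPM in WT and at 7.51, 7.69 and 8.33 CPM in KO females (log2 fold change 0.51, SE 0.138, edgeR adjusted p = 0.465). Pcdhb5 was at 6.81, 6.05 and 5.79 CPM in WT and at 8.30, 8.42 and 8.499 CPM in KO females (log2 fold change 0.43, SE 0.126, edgeR adjusted p = 0.515). Both genes had all KO females above all WT females. Pcdhb7 did as well, at 13.8, 12.5 and 11.9 CPM in WT and at 17.4, 15.48 and 18.3 CPM in KO females (log2 fold change 0.42, SE 0.113, edgeR adjusted p = 0.465). Pcdhb4 was at 7.39, 5.999 and 5.86 CPM in WT and at 6.22, 10.1 and 8.72 CPM in KO females (log2 fold change 0.38, SE 0.197, edgeR adjusted p = 0.718). KO female 1 fell within the WT range for this gene, so that the groups overlapped. All KO females were above all WT females for 6 of the 7 tested genes, against 7.57% of all genes tested.

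Over both sexes, with sex as a covariate, Pcdhb2, Pcdhb3, Pcdhb5, Pcdhb6 and Pcdhb7 rose in KO brains, 5 of 8 genes, where 1.89% of all tested genes were called and 0.374% were called as higher in KO. Pcdhb2 changed most among the 5, with 2.24 times the WT level (log2 fold change 1.16, SE 0.101, edgeR adjusted p = 6.13e-05). Pcdhb6 followed with 0.79 (SE 0.122, edgeR adjusted p = 0.004) and Pcdhb3 with 0.73 (SE 0.0868, edgeR adjusted p = 0.000622). Pcdhb5 and Pcdhb7 rose by 0.53 (SE 0.0788, edgeR adjusted p = 0.00289) and 0.50 (SE 0.0921, edgeR adjusted p = 0.0121). Pcdhb4 at 0.46 (SE 0.12, edgeR adjusted p = 0.0788) and Pcdhb8 at 0.38 (SE 0.103, edgeR adjusted p = 0.091) did not pass. Pcdhb4 passed without KO female 1 (0.54, edgeR adjusted p = 0.0218) and Pcdhb8 passed without KO male 2 (0.46, edgeR adjusted p = 0.0228). Those are the KO libraries that lay within the WT range, so leaving them out was bound to raise the difference. The choice of test also changed these calls. With all libraries kept, DESeq2 called Pcdhb4 and Pcdhb8 (DESeq2 adjusted p = 0.0138 and 0.0223). The likelihood ratio test of edgeR called Pcdhb4 (adjusted p = 0.0465) and not Pcdhb8 (adjusted p = 0.0912). Pcdhb2, Pcdhb3, Pcdhb5, Pcdhb6 and Pcdhb7 had every KO library above the WT libraries of its sex in both sexes, 5 of 8 genes against 1.34% of all genes tested.

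**Figure D2:**
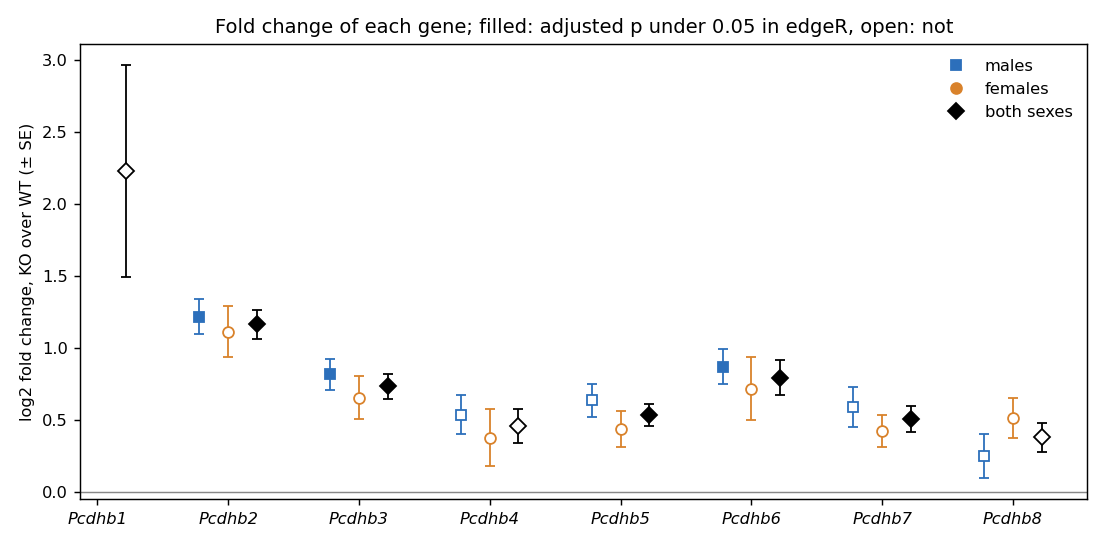
Log2 fold change, KO over WT, of each gene in males (squares), females (circles) and over both sexes (diamonds), with bars of 1 SE. Filled symbols passed an adjusted p under 0.05 in edgeR. All values lie above 0, and Pcdhb2 has the largest value of the genes tested in each sex. Pcdhb1 has a value over both sexes only, 2.23, the largest shown. It passed the filter on low counts only through KO libraries, so a difference was built into its inclusion.

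The Hox difference between libraries ran in opposite directions in the sexes. The 15 Hox genes summed to 24.2 to 252 CPM in WT and 0.6 to 69.8 CPM in KO males, and to 0.987 to 263 CPM in WT and 4.57 to 269 CPM in KO females. None of the 15 was called in either sex or over both. With the Hox level as a covariate, the same 5 genes were called over both sexes, and 0 of the 8 were called in males. There the log2 fold changes of Pcdhb2, Pcdhb3 and Pcdhb6 were 1.11, 0.88 and 0.90 (edgeR adjusted p = 0.0749, 0.126 and 0.213). Over all genes, this fit called 511 of 19767 over both sexes and 21 of 18671 in males, against 374 and 86 without the covariate. Within the 6 libraries under 1 CPM of Hoxa5 the estimates over both sexes were positive for all 7 genes from Pcdhb2 to Pcdhb8. They ran from 0.11 for Pcdhb4 to 1.05 for Pcdhb2. Within the other 6 libraries they were positive for these 7 as well, from 0.31 for Pcdhb8 to 1.27 for Pcdhb2. Each subset has 1 library in 1 arm of each sex, which is assumed to vary like the others. The subsets thus gave estimates and no calls for these genes. The other 9 marker lists, from forebrain and progenitors to microglia, endothelium and meninges, had 0 called genes in males, females and over both sexes. All 5 markers of oligodendrocyte precursors had negative log2 fold changes in each sex (medians -0.40 for males and -0.22 for females). They summed to 110 to 169 CPM in WT and 85.7 to 100.2 CPM in KO males, and to 95.6 to 138 CPM in WT and 71.1 to 115 CPM in KO females. The 5 markers of meninges and fibroblasts were also negative in each sex (medians -0.35 and -0.33), with overlapping sums of 205 to 1225 CPM in WT and 268 to 524 CPM in KO males, and 309.6 to 832 CPM in WT and 317 to 626 CPM in KO females. No marker of these lists was at 0 throughout, and their part in the differences was not tested.

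Pcdhb1, the first gene of the cluster, was close to silent in WT brains. WT females had 2, 0 and 0 counts and KO females had 13, 24 and 7. All 3 KO females were above all 3 WT females, and the pooled counts of 2 and 44 gave a ratio of 24.0, with an exact 95% interval of 6.26 to 204 that covers counting error only. WT males had 4, 4 and 5 counts and KO males had 3, 5 and 16, with a pooled ratio of 1.82 (interval 0.889 to 3.88). The male groups overlapped, and KO male 3 held most of the KO counts. The gene had too few counts for a test within either sex. Over both sexes it passed the filter on low counts only through 3 KO libraries, KO females 1 and 2 and KO male 3, so a difference was built into its inclusion. Its fitted log2 fold change of 2.23 (SE 0.736, edgeR adjusted p = 0.181) did not pass the test.

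The effect of genotype was compared between the sexes by an interaction term. None of the 8 genes was called by edgeR or DESeq2, 0% of all tested genes were called by edgeR and 0.0253% by DESeq2, and 4.45% had an unadjusted p under 0.05. Of the 8 genes, only Pcdhb1 had an unadjusted p under 0.05, with a female minus male difference of 3.58 (SE 1.37, edgeR adjusted p = 0.91) on the counts given above. For Pcdhb2 the difference was -0.10, with a 95% interval of -0.55 to 0.35, and for Pcdhb8 it was 0.27, with an interval of -0.17 to 0.70. The remaining 5 genes had estimates from -0.20 to -0.15. The intervals span changes of the size of the smaller fold changes above, so the data do not show that the sexes responded alike.

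The genes did not all change by the same amount. Ratios of neighbouring genes within a library do not depend on normalization, and they were compared between genotypes by a two-sided exact permutation test within sex, which has 400 arrangements and a smallest p of 0.005. The count of Pcdhb2 divided by that of Pcdhb3 was 0.692, 0.618 and 0.655 in WT males and 0.839, 0.773 and 0.987 in KO males. In females it was 0.713, 0.670 and 0.694 in WT and 0.988, 1.002 and 0.861 in KO. KO libraries were above WT libraries in both sexes, by 0.43 on the log2 scale (exact permutation p = 0.005, adjusted over 7 pairs 0.035). Pcdhb2 thus rose more than Pcdhb3. Without WT male 2 the difference was 0.41 and the adjusted exact p 0.0525.

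The count of Pcdhb3 divided by that of Pcdhb4 was 0.812, 1.01 and 1.03 in WT males and 1.18, 1.23 and 1.02 in KO males. In females it was 0.973, 1.01 and 0.946 in WT and 1.45, 1.09 and 1.09 in KO. The groups overlapped in males and not in females, and the difference was 0.28 on the log2 scale (exact permutation p = 0.01, adjusted 0.035). It no longer passed when any of WT males 1 and 2, KO males 1 and 2 or the 3 WT females was left out, with values of 0.23 to 0.31. No other neighbouring pair passed. Pcdhb5 over Pcdhb6 had -0.27 and Pcdhb6 over Pcdhb7 had 0.31 (adjusted exact p = 0.105 for each), and both passed without WT female 2 (-0.36 and 0.40, adjusted exact p = 0.0233 for each). Pcdhb4 over Pcdhb5 had -0.09 and Pcdhb7 over Pcdhb8 had 0.12 (adjusted exact p = 0.56 and 0.685). Pcdhb1 over Pcdhb2 had 1.15 (adjusted exact p = 0.245), from -0.70 in males and 3.005 in females.

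**Figure D3:**
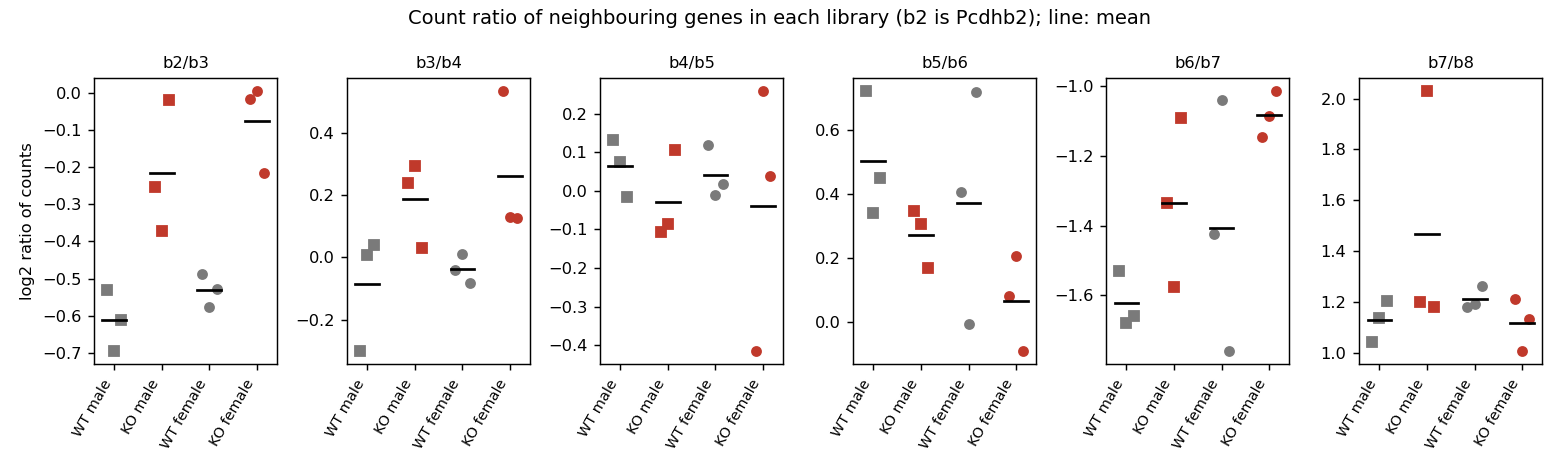
Log2 ratio of the counts of neighbouring genes in each library, by group, for the 6 pairs from Pcdhb2/Pcdhb3 to Pcdhb7/Pcdhb8, with black lines at group means and a separate vertical scale in each panel. In the panel of Pcdhb2/Pcdhb3 all KO libraries lie above all WT libraries of their sex.

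Per length of transcript, Pcdhb7 was the most abundant gene in both genotypes and Pcdhb1 the least. Over the 6 WT libraries Pcdhb7 had a level of 3.57 ± 0.307 CPM per kb of exon (SD, n = 6), and its lowest library lay above the highest library of each other gene. Pcdhb5, Pcdhb4, Pcdhb8, Pcdhb3 and Pcdhb2 followed at levels of 1.68, 1.66, 1.59, 1.56 and 1.41 CPM per kb, with SDs of 0.141 to 0.222, so neighbours in this order were not separated by the spread. Pcdhb6 had a level of 1.18 ± 0.262 CPM per kb (SD, n = 6) and overlapped Pcdhb2, and Pcdhb1 had 0.017 ± 0.0148. In KO libraries Pcdhb2 moved from the sixth place to the second, with a level of 3.16 ± 0.407 CPM per kb (SD, n = 6), below Pcdhb7 at 5.07 ± 0.677. Pcdhb3 was next at 2.59 ± 0.21, and its range overlapped that of Pcdhb2. Pcdhb5, Pcdhb4, Pcdhb8 and Pcdhb6 lay between 2.43 and 2.04 CPM per kb, and Pcdhb1 had 0.0905 ± 0.0731.

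Sequence shared between the genes was small at the scale of a read. Of all windows of 75 bases in the longest transcript, 3.67% for Pcdhb6, 2.54% for Pcdhb7, 2.03% for Pcdhb8 and 1.26% for Pcdhb4 also occurred in another gene, which was a beta gene or Gm37446, a gene model that overlaps Pcdhb12. Pcdhb3, Pcdhb5 and Pcdhb2 had 0.727%, 0.231% and 0.073%, and Pcdhb1 had 0%. Counts in such windows may be split between genes. No annotated exon of another gene overlapped the 8 genes, but 3 long read-through gene models span all of them. These models had 0 counts in every female library and at most 87 counts in a male library.

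The other beta genes rose as well, and the 8 genes made up a smaller share of the cluster's counts in KO males. Pcdhb9 to Pcdhb22 were called higher in KO over both sexes in 14 of 14, in 13 of 14 in males and in 2 of 14 in females. Their median log2 fold change over both sexes was 1.28 for Pcdhb9 to Pcdhb16 and 0.69 for Pcdhb17 to Pcdhb22, beside 0.53 for Pcdhb2 to Pcdhb8 and 0.00 over all genes tested. Of the beta genes, Pcdhb10 had the largest value of those called over both sexes, 1.51 (edgeR adjusted p = 7.88e-07). Pcdhb2, at 1.16, lay within the range of Pcdhb9 to Pcdhb16, which ran from 1.05 to 1.51, and the other 4 called genes lay below that range. Summed over the 8 genes, levels were 40.3 to 44.6 CPM in WT males and 65.6 to 71.6 CPM in KO males, and 41.5 to 51.6 CPM in WT females and 65.5 to 71.6 CPM in KO females. As a share of the counts of all 22 beta genes this was 25.5% ± 1.02 in WT and 20.6% ± 1.15 in KO males (SD, n = 3), without overlap. In females it was 23.6% ± 1.99 in WT and 21.1% ± 1.37 in KO (SD, n = 3), and the ranges overlapped. These stretches were set by gene number, and the difference between them was not tested.

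**Figure D4:**
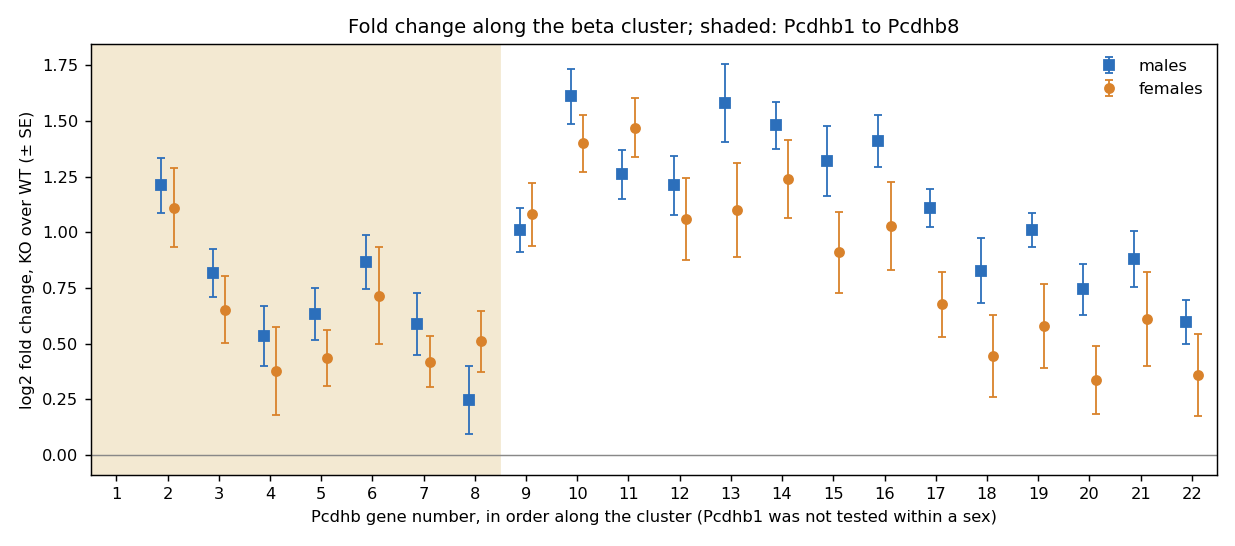
Log2 fold change, KO against WT, for the beta genes in their order along the cluster, in males (blue squares) and females (orange circles), with bars of 1 SE. The shaded genes are Pcdhb1 to Pcdhb8, of which Pcdhb1 has no value within a sex. The values fall from Pcdhb2 to Pcdhb4, and those of Pcdhb9 to Pcdhb16 are all above 0.9.

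**Figure D5:**
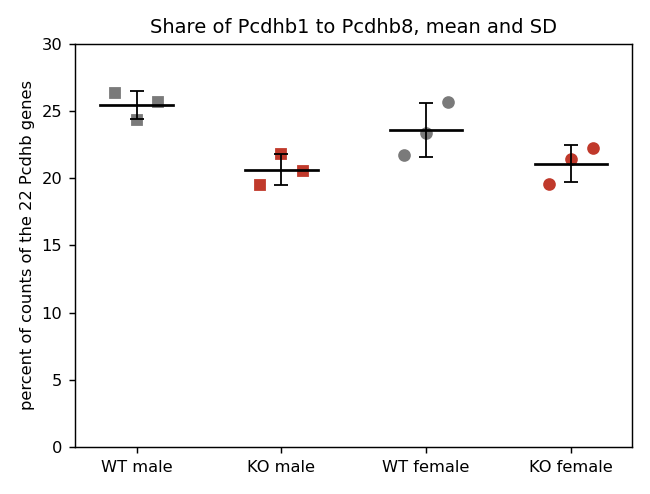
Counts of Pcdhb1 to Pcdhb8 as a percent of the counts of all 22 beta genes in each library, with the mean and SD of 3 embryos and a vertical axis that starts at 0. KO males lie at 19.5% to 21.8% and WT males at 24.4% to 26.4%, and the female groups overlap.

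The neighbouring clusters changed in both directions. Over both sexes, 2 of 14 alpha rows were higher and 2 lower in KO, namely Pcdha7 (0.45, edgeR adjusted p = 0.00872), the first of 2 rows named Pcdha11 (0.42, edgeR adjusted p = 0.0281), Pcdha6 (-0.86, edgeR adjusted p = 0.00111) and Pcdhac2 (-0.50, edgeR adjusted p = 0.00154). The second row named Pcdha11 has another gene ID and may be a different gene, and it had -0.31 (edgeR adjusted p = 0.294). Of 22 gamma rows, 1 was higher and 5 were lower, among them Pcdhgc3 (0.29, edgeR adjusted p = 0.0165), Pcdhga10 (-0.59, edgeR adjusted p = 0.000567), Pcdhgb5 (-0.86, edgeR adjusted p = 0.000933) and Pcdhga11 (-0.43, edgeR adjusted p = 0.0199). The symbol Pcdhga8 also stands on 2 rows, whose gene IDs differ, so they may be different genes. The first was called lower (-0.48, edgeR adjusted p = 0.0363) and the second was not called (-0.16, edgeR adjusted p = 0.365). Reads in the shared constant exons cannot be given to a single alpha or gamma gene, so these values are uncertain. Their medians were -0.19 for the alpha and -0.14 for the gamma rows.

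None of the 26 listed regulators of protocadherin promoters, which include Ctcf, the cohesin genes, Setdb1, Smchd1 and the DNA methyltransferases, was called by edgeR in either sex or over both. Their log2 fold changes over both sexes ran from -0.09 to 0.18, with a median of 0.07. In males 25 of the 26 were positive (median 0.159), where 9112 of all 18671 genes tested were. In females 11 of the 26 were positive (median -0.0119), where 9647 of all 18709 were. None of the 21 listed intracellular partners, such as the focal adhesion kinases Ptk2 and Ptk2b and the WAVE complex gene Wasf1, was called, and their median was 0.01.

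Across the 12 libraries, 4 of the 5 genes whose log2 CPM was most like the mean of the 8 genes were other beta genes. Pearson's r was 0.975 for Pcdhb11, 0.951 for Pcdhb10, 0.946 for Pcdhb14, 0.943 for Filip1 and 0.94 for Pcdhb12, out of 19760 genes. These values include the difference between genotypes. Once the mean of each sex and genotype group was subtracted, no beta gene was among the 5 most alike, which were Mfap5, Airn, Gm37423, RP23-293K21.8 and Pdss2 (r of 0.903 to 0.931), and Pcdhb22 came nearest of Pcdhb9 to Pcdhb22, at rank 100. Among the 21 pairs of Pcdhb2 to Pcdhb8 the median r was 0.841 (range 0.575 to 0.978), and less the group means it was 0.225 (range -0.237 to 0.724). All of these points share the same libraries and normalization. The mean of the 8 genes includes Pcdhb1, which had 0 to 24 counts in a library and a log2 CPM of -4.73 to -0.732. How far Pcdhb1 set the genes found most alike was not tested.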

How the data were processed

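The deposited counts are whole numbers per gene, not normalized, in a male and a female table. Per the paper, they were drawn from the output of StringTie, so they are not a direct tally of reads here. Per the paper and the submitters' processing notes, the authors depleted ribosomal RNA, trimmed reads with cutadapt 2.6, aligned them to mm10 (GRCm38) with HISAT2 2.1.0 and quantified them with StringTie 2.0.6. The strand setting, and which library had which depletion kit version or sequencer, are not given in the sources used here, so their part was not tested. Shared bases between paralogs could shift counts.

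Genes were kept by edgeR's filterByExpr (at least 10 counts scaled to library size and 15 in total), normalized by TMM and tested with edgeR 4.0.16 in R 4.3.3 (robust quasi-likelihood F test, threshold 0.05). Nsd2 was left out of background counts. log2 CPM used a prior count of 2 and ratios a pseudocount of 0.5. Intervals from counts treat these values as tallied independent reads and cover counting error only, although reads are not independent molecules. Figures and permutation tests used Python 3.11.15. The quasi-likelihood, likelihood ratio and DESeq2 fits and the permutation test were tested on simulated data, and the other steps were not. Positions came from GENCODE on GRCm38, and coding identity is the share of equal bases in pairwise alignments. Some symbols of the lists were matched through gene IDs. All 8 genes and Nsd2 are named, with up to 4 called genes of each other list, both rows of a repeated symbol and the 5 genes most like the 8. These genes and lists were chosen with earlier results of these data known, and the subset with at least 1 CPM of Hoxa5 was chosen after seeing the data. Alternatives were RLE, DESeq2 1.42.0, likelihood ratio and exact tests, other filters, a Hox covariate or subset, the replicate block, the spread over all 12 libraries and each library left out.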

Additional observations from a re-analysis of the deposited data

How the results depend on the processing

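Directions held more firmly than calls. Pcdhb1 had low counts and there were 3 libraries a group, and the part of either was not tested. In males, 3 of the 8 genes and 86 of all 18671 tested were called. DESeq2 called 6 of the 8 and 483 of 17210 genes, and edgeR's exact test 5 and 364 of 18671. The fit with the Hox covariate called 0 of the 8 and 21 of 18671 genes. With under 1 CPM of Hoxa5, WT male 1 is the only WT male left, so calls were not counted. With 1 library left out the count was 0 to 1, where 21 to 113 genes were called in all. In females, where 0 of the 8 and 3 of all 18709 genes tested were called, DESeq2 called 2 of the 8 and 179 of 15791. The likelihood ratio test, the exact test and the spread over 12 libraries called 1 each. Over all genes these settings called 93 of 18709, 99 of 18709 and 37 of 19767. Over both sexes, 5 of the 8 genes and 374 of all 19767 tested were called. On the same 12 libraries DESeq2 called 7 of the 8 and 805 of 19737 genes. The likelihood ratio test called 6 of the 8 and 554 of 19767. The Hoxa5 subsets have 6 libraries each, with 1 library in 1 arm of each sex, and gave estimates and no calls for these genes. A filter of more than 1 CPM in 3 libraries left Pcdhb1 out.

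Same-numbered libraries of the 2 genotypes correlated at -0.0519 to 0.195 in their deviations from group means. The same-numbered KO library was the closest for WT male 2 and WT females 1 and 3, and not for WT males 1 and 3 and WT female 2. The labels do not say whether the numbers pair embryos, and these values cannot settle it. With the replicate block 4 genes were called in males, 0 in females, 5 over both sexes and 0 in the interaction.

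Under 1 CPM of Hoxa5, where KO female 1 and WT male 1 are the only libraries of their groups and so have no replicate, Pcdhb4 in females reversed to -0.11, its low KO library being the one left, the Pcdhb8 interaction to -0.0517, and the ratios Pcdhb2/Pcdhb3 and Pcdhb3/Pcdhb4 had 0.46 and 0.49, no longer past the threshold, as 9 arrangements can give no p under 0.111. With the Hox covariate the interactions of Pcdhb2 and Pcdhb6 reversed to 0.0277 and 0.0811. With 1 library left out they ran from -0.234 to 0.0317 (above 0 without WT female 1) and from -0.337 to 0.0402 (without WT female 2), and that of Pcdhb4 from -0.312 to 0.00497 (without KO female 1). With 1 library left out, ratios ranged from 0.38 to 0.47 for Pcdhb2/Pcdhb3, 0.22 to 0.32 for Pcdhb3/Pcdhb4, -0.162 to 0.00634 for Pcdhb4/Pcdhb5, -0.36 to -0.18 for Pcdhb5/Pcdhb6, 0.22 to 0.40 for Pcdhb6/Pcdhb7 and -0.0165 to 0.20 for Pcdhb7/Pcdhb8. The ranges for Pcdhb4/Pcdhb5 and Pcdhb7/Pcdhb8 cross 0 through KO female 1 and KO male 2. The cause of the other changes was not tested.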
